A study of Mus musculus with 16 samples.

Results

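The tripartite motif (TRIM) genes described here are 10 mouse genes of a family of E3 ubiquitin ligases, linked to interferon, of which Trim14 lacks the RING that gives ligase activity: Trim21, Trim30a, Trim30d, Trim34a, Trim12c, Trim25, Trim14, Trim56, Trim26 and Trim13. They were followed in bone-marrow derived macrophages after interferon-gamma. Every feature of the array (a group of probes read as 1 value) that the platform annotation assigns to at least 1 of these genes was taken. This gave 12 features of 35557 on the array. Of these, 10 carry 1 gene symbol, 1 for each gene. The other 2 carry several symbols: 1 names Trim5, Trim12c and Trim12a and 1 names Trim5 and Trim12c, and neither can be given to a single gene.

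The cells came from H3.3-HA knock-in mice, in which the histone variant H3.3 carries an HA tag, so every group shares this allele. Marrow was grown into macrophages with medium conditioned by L cells. The 6 groups were pretreated cells at 0 h (4 arrays), 3 h (2 arrays) and 6 h (2 arrays), and naïve cells at 0 h (4 arrays), 3 h (2 arrays) and 6 h (2 arrays). Pretreated means an earlier exposure to interferon, per the sample titles; its dose, length and rest period were not stated in the labels. The titles place the 16 arrays in 2 sets of 8. Set 1 holds the 6 h arrays with 2 of the 0 h arrays of each kind, and set 2 holds the 3 h arrays with the others. Column medians lay between 7.15 and 7.23 in set 1 and between 6.89 and 7 in set 2, so changes were taken within a set. No cells left without interferon for 3 or 6 h are among the samples, so interferon and time in culture cannot be told apart. The 3 h and 6 h responses were also measured in different sets, so in their difference time and set cannot be told apart.

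TRIM proteins share an amino-terminal RING, B-box and coiled-coil arrangement, and the RING gives many of them ubiquitin ligase activity. Interferon-gamma signals through its receptor and the kinases JAK1 and JAK2, and raises transcription factors of the IRF family. Interferon-responsive promoters can hold a gamma-activated sequence (GAS) or an interferon-stimulated response element (ISRE), and IRF proteins bind the ISRE. In macrophages many TRIM genes are interferon-stimulated, and their products act on antiviral sensing, on NF-kB signalling or directly on virus particles.

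In the RefSeq annotation of GRCm38.p6, 5 of the genes lie on chromosome 7. Trim21 is at chr7:102557920-102565482. Trim34a (chr7:104244448-104262244), Trim12c (chr7:104338754-104353358), Trim30a (chr7:104409025-104465193) and Trim30d (chr7:104470014-104507853) lie in 1 cluster, with Trim5 (chr7:104263386-104288254) and Trim12a (chr7:104299893-104315558) between Trim34a and Trim12c. The others are at single places: Trim25 at chr11:88999403-89020294, Trim14 at chr4:46505072-46536150, Trim56 at chr5:137111286-137116462, Trim26 at chr17:36837123-36859398 and Trim13 at chr14:61598226-61610287. The chromosome 7 cluster arose by gene duplication, and probes on near copies can share signal, so values of Trim30a and Trim30d, and of Trim12c and its relatives, may not be fully separate.

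Promoter windows from RefSeq (GRCm38.p6), 250 bases before to 50 after each annotated start, were at hand for 9 of the 10 genes, in 11 windows, and there was no entry for Trim14. An ISRE-like string, GAAA, any 2 bases and GAAA again, or on the other strand TTTC, any 2 bases and TTTC, occurred in 6 of these 9 genes: Trim21, Trim26, Trim30a, Trim30d, Trim34a and Trim12c. Of 32851 mouse windows of the same length, 3.44% held it, and it occurred in 3.99% of 27025 genes. Among 53 other TRIM genes on the array, 41 had a window and 2, Trim12a and Trim2, held the string. The GAS-like string TTCNNNGAA occurred in 0 of the 9 genes, against 9.55% of all genes, and in 0 of the 11 windows, against 8.3% of all windows. At these shares so few windows cannot show a lack of the string. A match says only that these letters stand in the window. The stretches around the matches are shown because these 6 genes can then be set beside their responses, with capitals marking the ISRE-like letters.
Trim21, chr7:102565433-102565494, minus strand: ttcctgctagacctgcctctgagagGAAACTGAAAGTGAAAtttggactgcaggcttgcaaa
Trim26, chr17:36836961-36837026, plus strand: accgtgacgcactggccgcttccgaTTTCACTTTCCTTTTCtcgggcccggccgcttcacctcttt
Trim30a at its upstream start, chr7:104465195-104465254, minus strand: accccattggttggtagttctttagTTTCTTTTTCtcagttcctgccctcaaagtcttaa
Trim30a at its downstream start, chr7:104446089-104446148, minus strand: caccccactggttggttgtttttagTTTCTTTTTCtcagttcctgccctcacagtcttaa
Trim30d, chr7:104507856-104507915, minus strand: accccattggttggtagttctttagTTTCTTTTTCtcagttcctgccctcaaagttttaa
Trim34a, chr7:104244442-104244501, plus strand: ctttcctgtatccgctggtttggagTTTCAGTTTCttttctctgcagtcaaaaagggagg
Trim12c, chr7:104353344-104353403, minus strand: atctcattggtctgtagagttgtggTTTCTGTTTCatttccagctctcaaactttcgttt

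In Trim21 and Trim26 the capitals cover 2 overlapping matches. Counted from the annotated start, matches began at 13 and 19 in Trim21, at -160 and -154 in Trim26, at -36 in Trim30a (2 at its downstream start), at -41 in Trim30d, at 10 in Trim34a and at -29 in Trim12c. The upstream Trim30a window and the Trim30d window were alike in 277 of 305 aligned positions (90.8%). Trim25, Trim56 and both windows of Trim13 held no match. The Trim56 window (chr5:137116158-137116457, minus strand) lies inside the gene span given above. The bases before the outer end of Trim56 were therefore not searched. The Trim13 window is shown as an example of a window without a match. In naïve cells Trim13 passed the test at 6 h but not at 3 h. The same held for Trim26 and Trim12c, which have matches, while Trim56, without a match, passed at both times.
Trim13 at its upstream start, chr14:61597976-61598275, plus strand: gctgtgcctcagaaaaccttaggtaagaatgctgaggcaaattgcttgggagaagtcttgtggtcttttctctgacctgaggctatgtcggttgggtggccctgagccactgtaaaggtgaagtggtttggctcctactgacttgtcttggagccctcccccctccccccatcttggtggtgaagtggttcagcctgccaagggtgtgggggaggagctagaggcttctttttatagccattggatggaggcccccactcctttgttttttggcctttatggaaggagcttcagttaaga

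**Figure D1:**
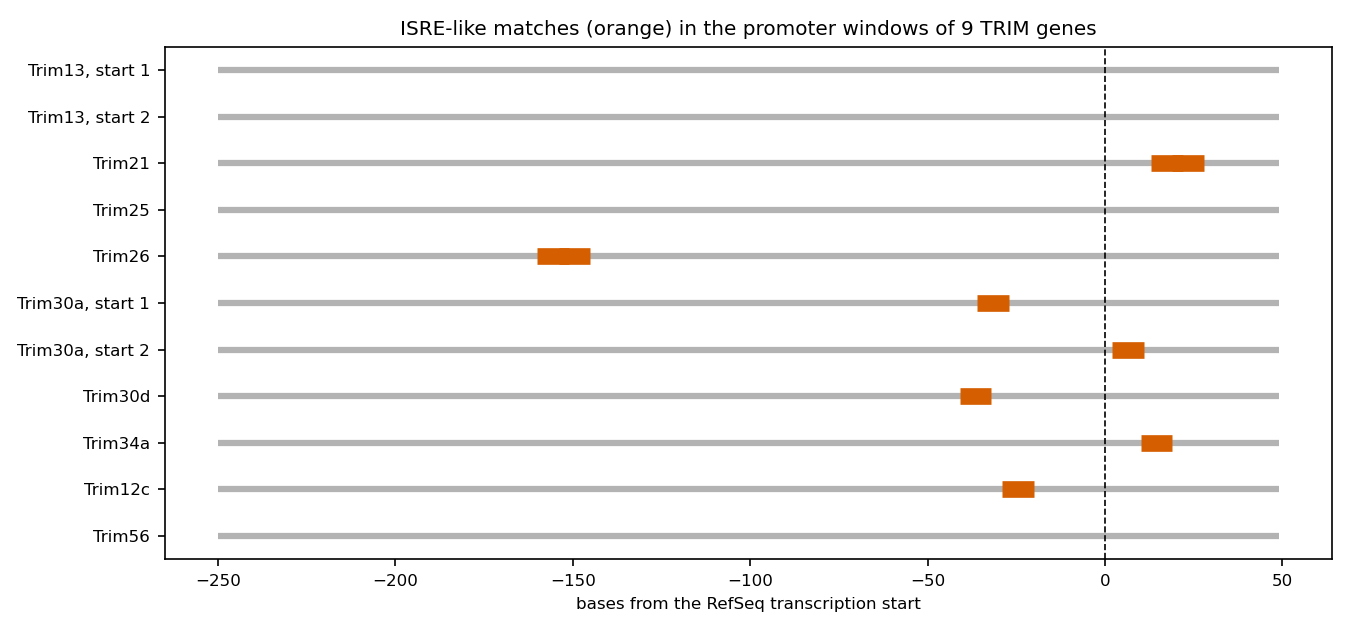
Each row is 1 promoter window of a TRIM gene, with distance in bases from the RefSeq start on the horizontal axis (250 before to 50 after), and orange marks are ISRE-like matches. Matches stand in 7 of 11 windows, and those of Trim26 lie farther upstream (-160 and -154) than those of the chromosome 7 genes.

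Macrophage identity was checked with 8 measured marker genes, whose mean log2 intensity lay between 12.52 and 12.87 in every array. In limma 1 of the 8 rose and 1 fell at 6 h in naïve cells (7.4% and 9.91% of all features). Among them, named after their values were seen, Fcgr1 averaged 10.98 in naïve 0 h, 12.78 in naïve 3 h and 12.27 in pretreated 0 h arrays of set 2. Cd14 averaged 12 in naïve 0 h and 11.13 in naïve 6 h arrays of set 1. Lists for neutrophils, T, B and NK cells, fibroblasts, mast cells and erythroid cells had means between 4.78 and 7.57. Of 5 dendritic cell markers, Clec9a and Xcr1 rose at 6 h in naïve cells (4.44 ± 0.39 and 1.1 ± 0.28 log2, SE) and Clec9a in pretreated cells (3.62 ± 0.39), while Flt3, Zbtb46 and Ccr7 did not pass the test. The mean of the 5 was 7.78 in pretreated 6 h and 6.91 in pretreated 0 h arrays, and 7.54 in naïve 6 h and 6.47 in naïve 0 h arrays. At 0 h Clec9a was also higher in pretreated than in naïve cells (1.67 ± 0.28 log2, limma adjusted p = 0.00836), at 7.31 against 5.55 in set 1 and 6.6 against 5.04 in set 2. It was the 1 of the 5 markers that passed the test at 0 h. The median difference was 0.1 log2 over the 5 and 0.01 over all features. The part of these markers in the 0 h and 6 h results was not tested. In such bulk RNA, fewer cells of a type and less RNA per cell cannot be told apart. The labels do not say whether arrays of a group came from separate cultures or animals, and the p-values therefore reflect array-to-array spread, which may be technical.

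Trim21, the cytosolic Fc receptor that binds antibody-coated virus particles and marks them for the proteasome, had the largest 3 h response of the 12 features. Naïve 3 h cells had 12.11 and 12.52 log2 intensity, against 10.25 and 10.63 in naïve 0 h cells of the same set. Naïve 6 h cells had 12.29 and 12.3, against 10.96 and 10.88 in naïve 0 h cells of set 1. Both interferon times lay above every 0 h array of their set. The rise was 1.87 ± 0.17 log2 at 3 h (3.66-fold, SE, n = 2 arrays a group, limma adjusted p = 2.28e-05) and 1.38 ± 0.17 at 6 h (2.6-fold, limma adjusted p = 1.34e-04).

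Trim21 also rose in pretreated cells. Pretreated 3 h cells had 12.08 and 12.33, against 10.86 and 11.21 in pretreated 0 h cells. Pretreated 6 h cells had 12.02 and 12, against 11.17 and 11.32 in pretreated 0 h cells. Both times lay above their 0 h arrays. The rise was 1.17 ± 0.17 log2 at 3 h (2.25-fold, limma adjusted p = 0.00246) and 0.76 ± 0.17 at 6 h (1.7-fold, limma adjusted p = 0.0203). The 6 h call was lost without any of its 4 arrays (limma adjusted p up to 0.133), and the 3 h call was kept.

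Trim30d belongs to the mouse Trim30 group of the chromosome 7 cluster and rose in naïve cells at both times. In naïve cells Trim30d read 11.26 and 11.69 at 3 h, against 9.91 and 10.18 at 0 h. In set 1 it read 11.57 and 11.44 in naïve 6 h cells, against 10.3 and 10.3 in naïve 0 h cells. Neither time overlapped its 0 h arrays. The rises were 1.43 ± 0.16 log2 (2.7-fold, limma adjusted p = 9.47e-05) and 1.21 ± 0.16 log2 (2.31-fold, limma adjusted p = 1.78e-04). Pretreated 3 h cells had 11.8 and 11.76, against 11.11 and 10.8 in pretreated 0 h cells. Pretreated 6 h cells had 11.22 and 11.09, against 10.69 and 10.87 in pretreated 0 h cells. The ranges again did not overlap, but by smaller steps: 0.82 ± 0.16 log2 at 3 h (1.77-fold, limma adjusted p = 0.0133, a call kept of the 4 arrays only when pretreated 0 h replicate 3 was left out, 0.151 at most) and 0.38 ± 0.16 at 6 h (limma adjusted p = 0.259).

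Trim30a, which in mouse macrophages restrains Toll-like receptor signalling to NF-kB through the adaptors TAB2 and TAB3, read at least 12.31 log2 intensity in every array. Naïve 3 h cells had 13.17 and 13.25, against 12.31 and 12.51 in naïve 0 h cells. Naïve 6 h cells had 13.15 and 13.17, against 12.47 and 12.57 in naïve 0 h cells. The interferon arrays were tightly grouped and lay above the 0 h arrays, by 0.8 ± 0.1 log2 at 3 h (1.74-fold, limma adjusted p = 2.87e-04) and 0.64 ± 0.1 at 6 h (1.56-fold, limma adjusted p = 7.03e-04). Pretreated 3 h cells had 13.32 and 13.25, against 12.86 and 12.83 in pretreated 0 h cells. Pretreated 6 h cells had 13.02 and 12.93, against 12.73 and 12.77 in pretreated 0 h cells. The rise was 0.44 ± 0.1 log2 at 3 h (limma adjusted p = 0.0356, but 0.101 to 0.207 with any of the 4 arrays left out) and 0.23 ± 0.1 at 6 h (limma adjusted p = 0.308).

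Trim34a, whose human relative TRIM34 acts with TRIM5 on retroviral capsids, rose at both times in naïve cells. Its values were 9.35 and 9.67 in naïve 3 h cells, against 8.53 and 8.65 in naïve 0 h cells. In set 1 they were 8.55 and 8.88 in naïve 6 h cells, against 8.14 and 8.23 in naïve 0 h cells. Both times lay above their 0 h arrays, by 0.92 ± 0.15 log2 (1.89-fold, limma adjusted p = 0.00197) and 0.53 ± 0.15 log2 (limma adjusted p = 0.0237, a call kept of the 4 arrays only when naïve 6 h replicate 1 was left out, 0.208 at most). Pretreated 3 h cells had 9.52 and 9.45, against 9.04 and 8.87 in pretreated 0 h cells, a difference of 0.53 ± 0.15 log2 that did not pass (limma adjusted p = 0.0843). Pretreated 6 h cells had 8.53 and 8.44, within the spread of 8.36 and 8.61 in pretreated 0 h cells.

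Trim12c, a mouse relative of the human retroviral restriction factor TRIM5, had the widest replicate spread of the 12 features. Naïve 3 h cells had 9.81 and 9.74, against 8.81 and 8.44 in naïve 0 h cells. Naïve 6 h cells had 10.52 and 11.06, against 9.47 and 9.39 in naïve 0 h cells. No array overlapped, yet with an SE of 0.37 the 3 h difference of 1.15 did not pass (limma adjusted p = 0.118, but 0.0129 on set 2 alone and 0.0233 with array weights) and the 6 h rise of 1.35 (2.56-fold) did (limma adjusted p = 0.0233, a call kept of the 4 arrays only when naïve 6 h replicate 1 was left out, 0.162 at most). For the naïve 3 h difference, 3 of 12 other fits passed, and with no term for array set the limma adjusted p was 0.41. In pretreated cells of set 1 the 0 h arrays read 8.6 and 10.14, which spans more than the 6 h arrays at 10.05 and 10.4. The 3 h and 6 h differences in pretreated cells, 0.53 ± 0.37 and 0.85 ± 0.37 log2, did not pass the test (limma adjusted p = 0.615 and 0.299). The 6 h value moved with the 0 h array left out, at 0.09 log2 without replicate 1 and 1.62 without replicate 2 (limma adjusted p = 0.00525).

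The 2 features shared with Trim5 rose in naïve cells in a similar way. The feature of Trim5, Trim12c and Trim12a had 10.68 and 10.64 in naïve 3 h cells, against 9.94 and 9.73 in naïve 0 h cells, and 11.45 and 11.65 in naïve 6 h cells, against 10.88 and 10.84 in naïve 0 h cells. Its rises were 0.83 ± 0.18 and 0.69 ± 0.18 log2 (limma adjusted p = 0.0171 and 0.0185). The feature of Trim5 and Trim12c rose by 0.85 ± 0.18 log2 at 3 h and by 0.89 ± 0.18 at 6 h (limma adjusted p = 0.0145 and 0.00423). At 3 h both calls were lost without naïve 0 h replicate 4 (limma adjusted p = 0.141 and 0.154), without naïve 3 h replicate 1 (0.106 and 0.0985) or without naïve 3 h replicate 2 (0.0979 and 0.0817). At 6 h the feature of Trim5 and Trim12c kept its call, and the other kept it of the 4 arrays only when naïve 6 h replicate 1 was left out (limma adjusted p up to 0.123). In pretreated cells neither passed the test at 3 h or 6 h, with differences between 0.26 and 0.45 log2.

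**Figure D2:**
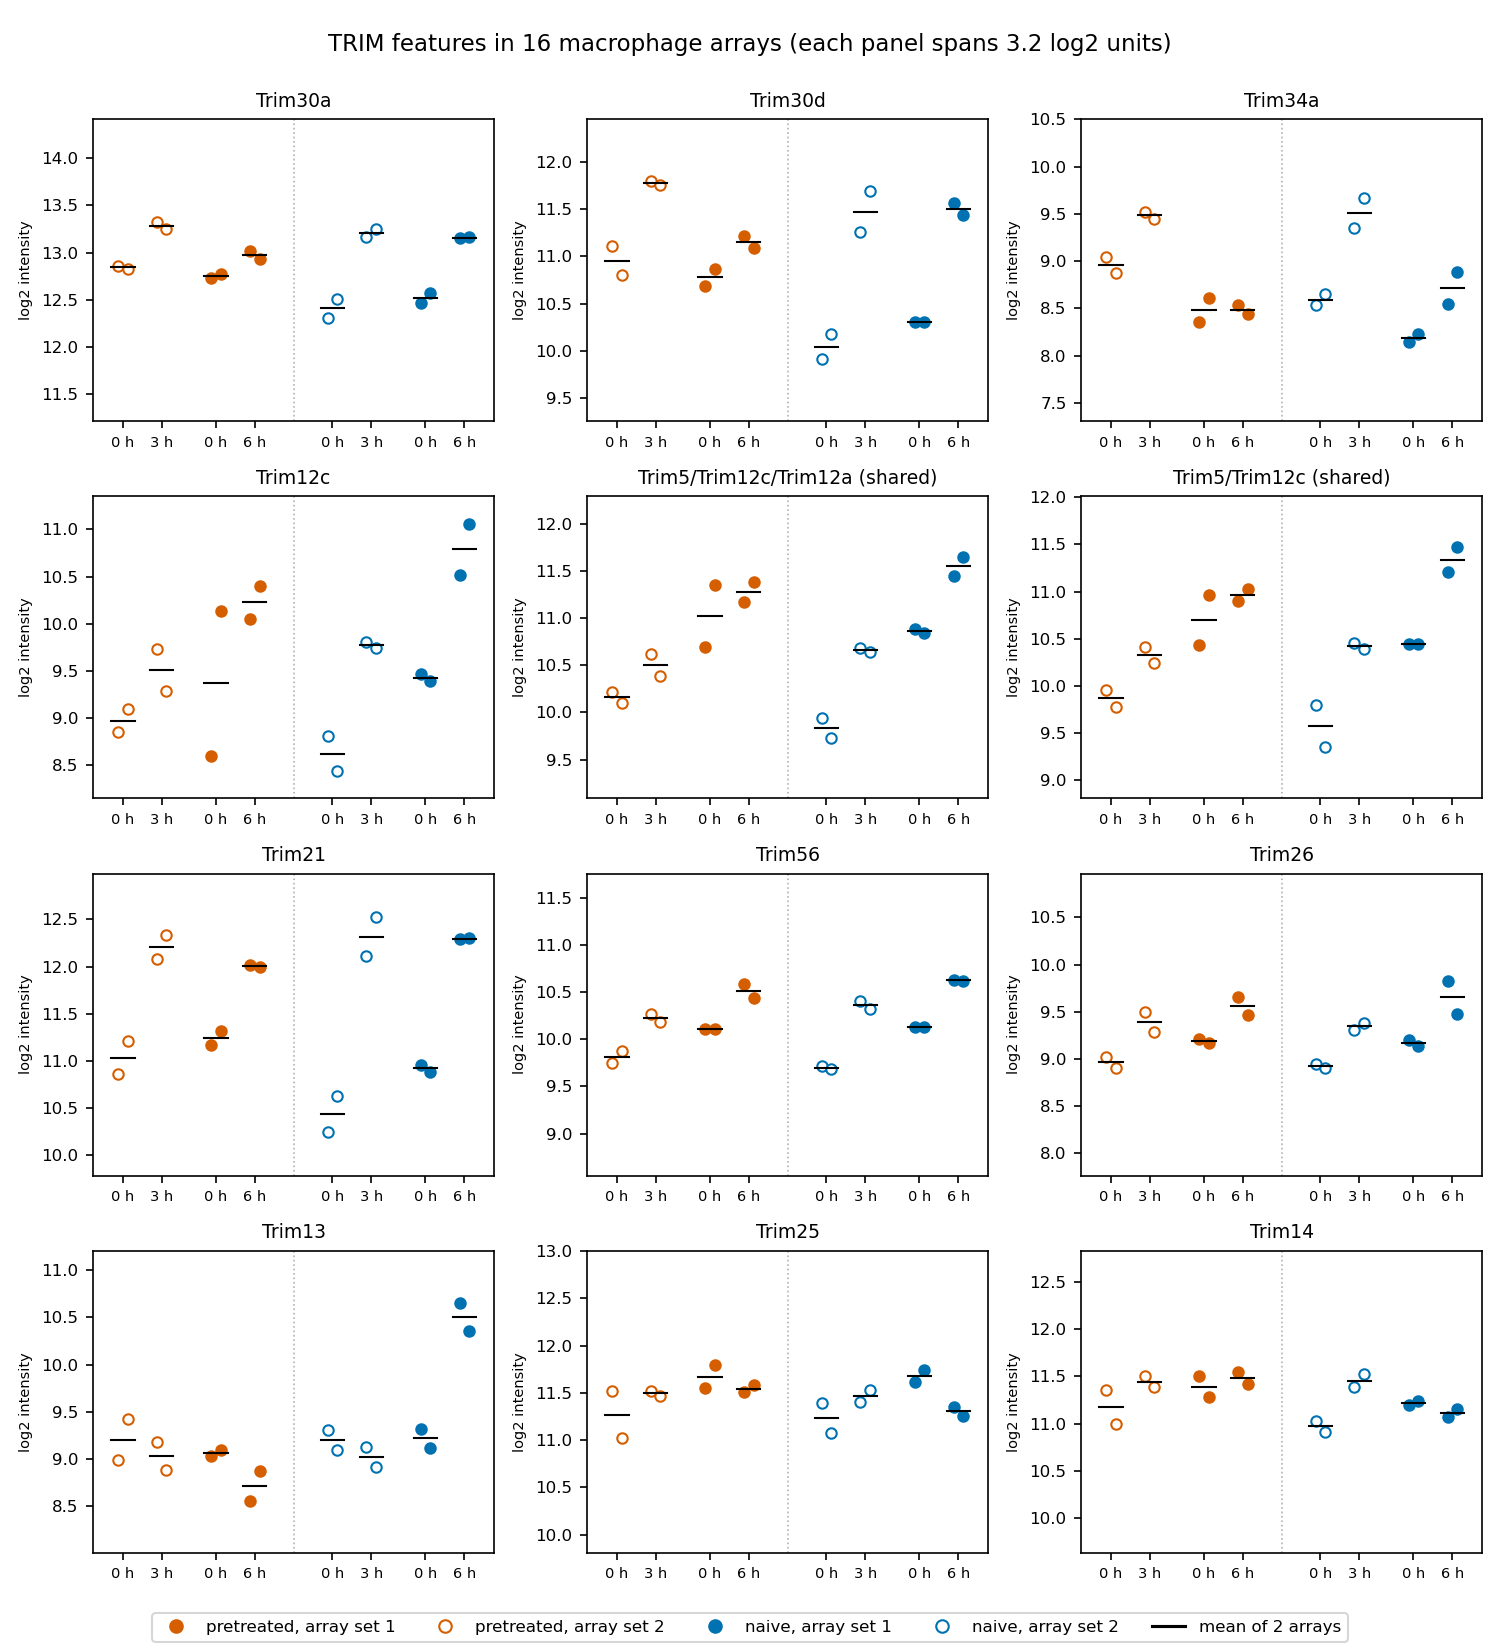
Log2 intensity in each of the 16 arrays for the 12 features, 1 panel each, all spanning 3.2 log2 units, with pretreated cells left of naïve cells at each time; open points are set 2, filled points set 1, and bars are means of 2 arrays. Trim21 and Trim30d stand higher at 3 h and 6 h than at 0 h, and Trim13 stands high in the naïve 6 h arrays alone (10.65 and 10.36).

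Trim56, a ligase that acts on STING and cGAS in DNA sensing, rose in 4 of the 4 responses. In set 2 the values were 10.4 and 10.32 in naïve 3 h cells, against 9.72 and 9.68 in naïve 0 h cells. They were 10.63 and 10.62 in naïve 6 h cells, against 10.13 and 10.13 in naïve 0 h cells. These rises of 0.66 ± 0.1 log2 (1.58-fold, limma adjusted p = 0.00102) and 0.49 ± 0.1 log2 (limma adjusted p = 0.00315) were small but well outside the replicate spread. Pretreated 3 h cells had 10.27 and 10.18, against 9.75 and 9.87 in pretreated 0 h cells. Pretreated 6 h cells had 10.58 and 10.44, against 10.11 and 10.11 in pretreated 0 h cells. The ranges did not overlap, with rises of 0.41 ± 0.1 and 0.4 ± 0.1 log2 (limma adjusted p = 0.0412 and 0.0291), and both calls were lost with any of their 4 arrays left out (limma adjusted p up to 0.159 and 0.278).

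Trim25 attaches ubiquitin chains to the RNA sensor RIG-I, and its differences did not pass the test in any of the 4 responses. It had 11.4 and 11.53 in naïve 3 h cells, against 11.39 and 11.08 in naïve 0 h cells, and 11.35 and 11.26 in naïve 6 h cells, against 11.61 and 11.74 in naïve 0 h cells. The differences were 0.23 ± 0.16 log2 at 3 h (95% interval -0.12 to 0.57, limma adjusted p = 0.637) and -0.37 ± 0.16 at 6 h (interval -0.72 to -0.02, limma adjusted p = 0.156). In pretreated cells they were 0.23 ± 0.16 and -0.12 ± 0.16 log2, with overlapping arrays at both times. At 0 h its arrays already read between 11.02 and 11.79.

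Trim14, a family member without a RING that serves as an adaptor of MAVS at mitochondria, likewise had no difference that passed. Its 3 h values were 11.39 and 11.52 in naïve 3 h cells, against 11.03 and 10.91 in naïve 0 h cells, a difference of 0.49 ± 0.13 log2 just outside the threshold (limma adjusted p = 0.054, but 0.0147 with array weights and 0.0238 with an additive set term). At 6 h they were 11.07 and 11.15 in naïve cells, against 11.2 and 11.24 in naïve 0 h cells (-0.1 ± 0.13 log2, limma adjusted p = 0.759). In pretreated cells the differences were 0.27 ± 0.13 log2 at 3 h and 0.09 ± 0.13 at 6 h. For the naïve 3 h difference, 5 of 12 other fits passed, and with no term for array set the limma adjusted p was 0.289.

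Trim26, encoded in the MHC region and reported to act on IRF3 and TBK1 in interferon induction, differed by 0.38 to 0.49 log2 in each of the 4 responses. Naïve 6 h cells had 9.83 and 9.48, against 9.2 and 9.14 in naïve 0 h cells. This was its 1 call, a rise of 0.49 ± 0.13 log2 (limma adjusted p = 0.0187), which was lost without naïve 6 h replicate 1 (limma adjusted p = 0.222), naïve 0 h replicate 1 (0.0632) or naïve 0 h replicate 2 (0.114). Naïve 3 h cells had 9.31 and 9.38, against 8.95 and 8.9 in naïve 0 h cells (0.42 ± 0.13 log2, limma adjusted p = 0.0931, but 0.0438 with array weights and 0.0444 with an additive set term). The arrays did not overlap in any of these 4 comparisons. For the naïve 3 h difference, 3 of 12 other fits passed, and with no term for array set the limma adjusted p was 0.415.

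Trim13, a ligase anchored in the endoplasmic reticulum membrane that takes part in protein quality control and autophagy there, rose in naïve cells at 6 h. Naïve 6 h cells had 10.65 and 10.36, against 9.32 and 9.12 in naïve 0 h cells, a rise of 1.29 ± 0.18 log2 (2.44-fold, limma adjusted p = 2.93e-04). Naïve 3 h cells had 9.13 and 8.92, against 9.31 and 9.1 in naïve 0 h cells, and these overlapped (-0.18 ± 0.18 log2, 95% interval -0.56 to 0.21, limma adjusted p = 0.799). Pretreated 6 h cells had 8.56 and 8.87, below 9.03 and 9.1 in pretreated 0 h cells, but the difference of -0.35 ± 0.18 log2 did not pass (limma adjusted p = 0.421). Pretreated 3 h cells had 9.18 and 8.88, overlapping 8.99 and 9.42 in pretreated 0 h cells (-0.17 ± 0.18 log2). Outside the 2 naïve 6 h arrays, none of the other 14 read above 9.42.

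Counted together, 7 of the 12 features rose and 0 fell at 3 h in naïve cells, where 3.44% of the 23410 features with a gene symbol rose and 1.89% fell (limma, adjusted p under 0.05). The median change was 0.82 log2 over the 12 and 0 over the 23410. With no term for array set, Trim56 and the 2 shared features were no longer called (limma adjusted p = 0.197, 0.669 and 0.596). In 11 of the 12 both 3 h arrays lay above both 0 h arrays, as did 22.9% of all features tested. At 6 h in naïve cells, 10 of 12 rose and 0 fell, where 7.4% of all features rose and 9.91% fell, with medians of 0.67 and -0.02 log2. Fitted on set 1 alone, Trim26, Trim12c and the feature of Trim5, Trim12c and Trim12a missed the threshold (limma adjusted p = 0.0504, 0.0689 and 0.0551), and with no set term so did Trim34a (0.355). Of the 6 genes with an ISRE-like string in the printed windows, 4 rose at 3 h and 6 at 6 h in naïve cells. Of the 3 genes with a window and no match, Trim56 rose at 3 h, and Trim56 and Trim13 at 6 h. For Trim56 the window lies inside the gene, and the bases before its outer end were not searched. The arrays did not overlap in 10 features upward (24.9% of all features) and in 2 downward, Trim25 and Trim14 (30.9%).

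In pretreated cells 4 of 12 features rose at 3 h, Trim21, Trim30d, Trim30a and Trim56, and 0 fell, where 1.82% of all features rose and 0.889% fell. The medians were 0.44 log2 over the 12 features and 0 over all features. Fitted on set 2 alone, Trim21 kept its call and Trim30d, Trim30a and Trim56 did not (limma adjusted p = 0.0759, 0.133 and 0.137). In 10 of the 12 the 3 h arrays lay above the 0 h arrays, against 14.5% of all features. At 6 h Trim21 and Trim56 rose, 2 of 12, and 0 fell, where 2.86% of all features rose and 2.58% fell. Trim56 missed the threshold on set 1 alone (limma adjusted p = 0.0853). The medians were 0.26 and -0.03 log2, and 5 of 12 features had 6 h arrays above the 0 h arrays (16.7% of all features).

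**Figure D3:**
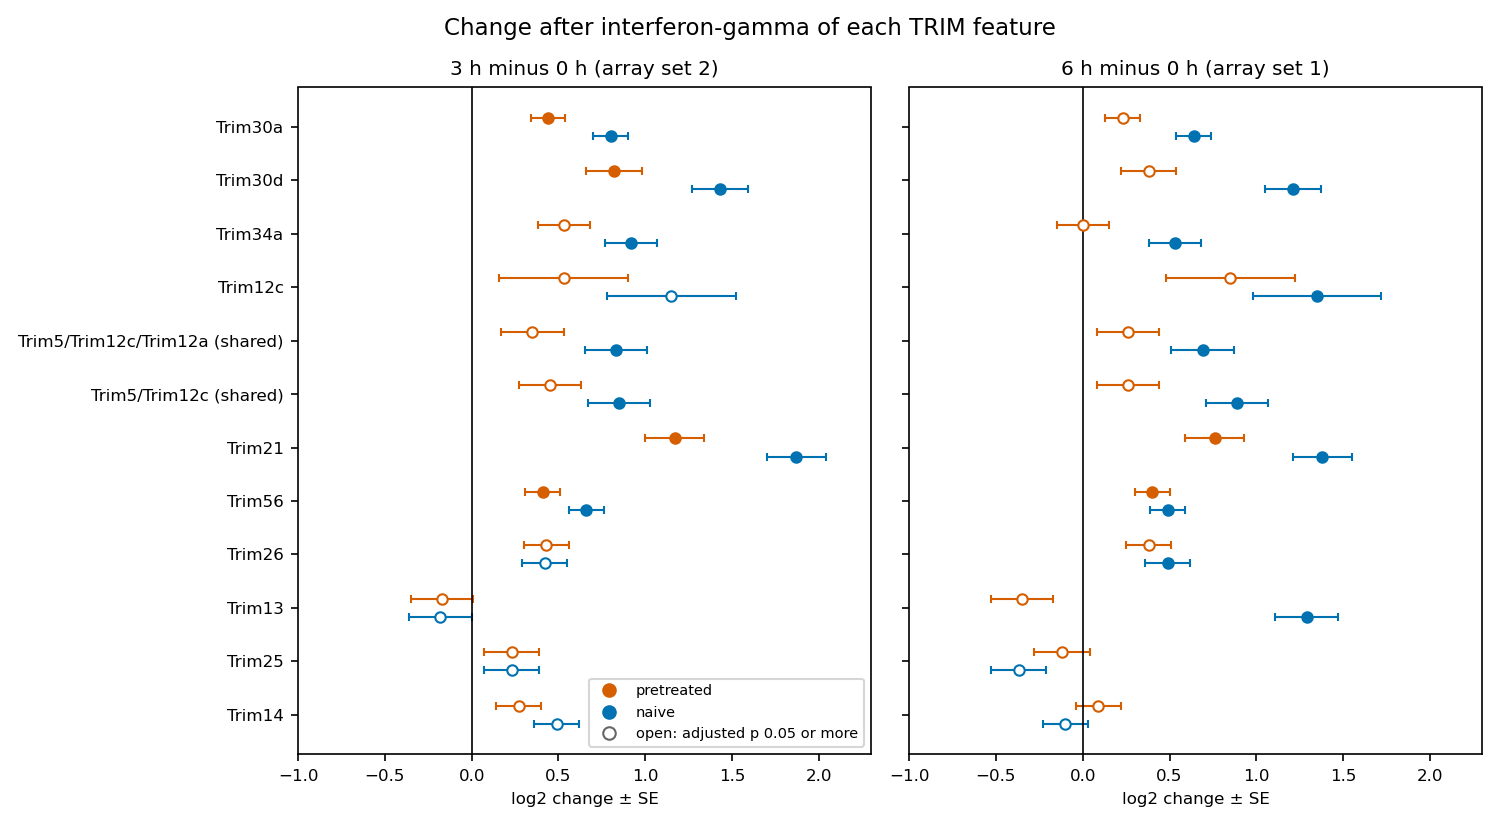
Log2 change against 0 h of the same array set (horizontal axis) with SE bars for the 12 features at 3 h and 6 h, pretreated above naïve cells; filled points passed the test (limma adjusted p under 0.05). Filled points number 7 and 10 in naïve cells and 4 and 2 in pretreated cells, and Trim21 is filled in 4 of 4.

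Before restimulation, 2 of 12 features were higher in pretreated than in naïve cells and 0 lower (limma adjusted p under 0.05), where 0.97% of all features were higher and 0.158% lower. Trim30d had 10.69 and 10.87 in pretreated 0 h cells of set 1, against 10.3 and 10.3 in naïve 0 h cells, and 11.11 and 10.8 in pretreated 0 h cells of set 2, against 9.91 and 10.18 in naïve 0 h cells. The pretreated arrays lay above the naïve arrays in both sets, by 0.7 ± 0.11 log2 over both (1.62-fold, SE, n = 4 arrays a group, limma adjusted p = 0.0055). Within sets the difference was 0.48 log2 in set 1 and 0.91 in set 2, with limma adjusted p of 0.553 and 0.0154 in the fit of the 16 arrays, and 0.295 and 0.14 when each set was fitted alone. The difference between the 2 sets did not pass (-0.43 ± 0.22 log2, limma adjusted p = 1). Each of the 8 arrays could be left out with the Trim30d call kept (limma adjusted p up to 0.0326). Clec9a, the 1 of 5 dendritic cell markers that passed the test at 0 h, was higher in pretreated cells too, as given above.

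Trim30a was the other call at 0 h. It had 12.73, 12.77, 12.86 and 12.83 in pretreated 0 h cells, against 12.47, 12.57, 12.31 and 12.51 in naïve 0 h cells. No pretreated array fell within the naïve range, a shift of 0.33 ± 0.07 log2 (1.26-fold, limma adjusted p = 0.044; 0.23 in set 1 and 0.44 in set 2). Of the 8 arrays, this call was kept only when naïve 0 h replicate 4 was left out, and leaving out any of the other 7 gave a limma adjusted p between 0.0864 and 0.23. Trim21 had 11.17, 11.32, 10.86 and 11.21 in pretreated 0 h cells, against 10.96, 10.88, 10.25 and 10.63 in naïve 0 h cells. Within each set the Trim21 ranges did not overlap, yet the difference of 0.46 ± 0.12 log2 did not pass (limma adjusted p = 0.13). Trim34a was in the same position, with 0.33 ± 0.1 log2 (limma adjusted p = 0.263). The Trim56 arrays did not overlap within sets either, but in opposite directions, by -0.02 log2 in set 1 and 0.11 in set 2. The share of all features without overlap at 0 h was not computed, so these ranges are description only. Differences of the other 8 features lay between -0.08 (Trim13) and 0.27 log2 (the feature of Trim5 and Trim12c). At an unadjusted p under 0.05 there were 4 of 12 features, against 7.68% of all features. The median over the 12 was 0.21 log2, and that over all features 0.01.

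Under interferon the levels of pretreated and naïve cells were compared directly. At 3 h 0 of the 12 features differed by limma (0 also at an unadjusted p under 0.05, a mark reached by 3.56% of all features), where 0.0128% of all features did. For Trim30d, at 11.8 and 11.76 in pretreated 3 h cells against 11.26 and 11.69 in naïve 3 h cells, the difference was 0.3 ± 0.16 log2 (95% interval -0.04 to 0.64). For Trim21 it was -0.11 ± 0.17 log2 (interval -0.48 to 0.26) and for Trim30a 0.08 ± 0.1 (interval -0.14 to 0.29). Trim12c allowed the widest range, -1.07 to 0.54 log2.

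At 6 h Trim13 was the 1 feature of 12 that differed between pretreated and naïve cells, where 0.261% of all features were lower and 0.402% higher. It had 8.56 and 8.87 in pretreated 6 h cells, against 10.65 and 10.36 in naïve 6 h cells. The gap between the nearest arrays exceeded the spread within either group, and the difference of -1.79 ± 0.18 log2 (3.47-fold lower, SE, n = 2 arrays a group, limma adjusted p = 0.00216) was kept with any of the 4 arrays left out (limma adjusted p up to 0.0289). In 9 of the 12 features both pretreated 6 h arrays lay below both naïve 6 h arrays, as did 19.1% of all features. Outside Trim13 these 8 differences ran from -0.11 (Trim56) to -0.56 log2 (Trim12c) and none passed the test. In 2 of the 12, Trim14 and Trim25, both pretreated 6 h arrays lay above both naïve 6 h arrays, as did 23.6% of all features. Trim25 differed by 0.24 ± 0.16 log2 (limma adjusted p = 0.685). Trim14 stood at 11.55 and 11.42 in pretreated 6 h cells against 11.07 and 11.15 in naïve 6 h cells (0.37 ± 0.13 log2, limma adjusted p = 0.254). At an unadjusted p under 0.05 there were 3 of 12 features, against 12% of all features.

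**Figure D4:**
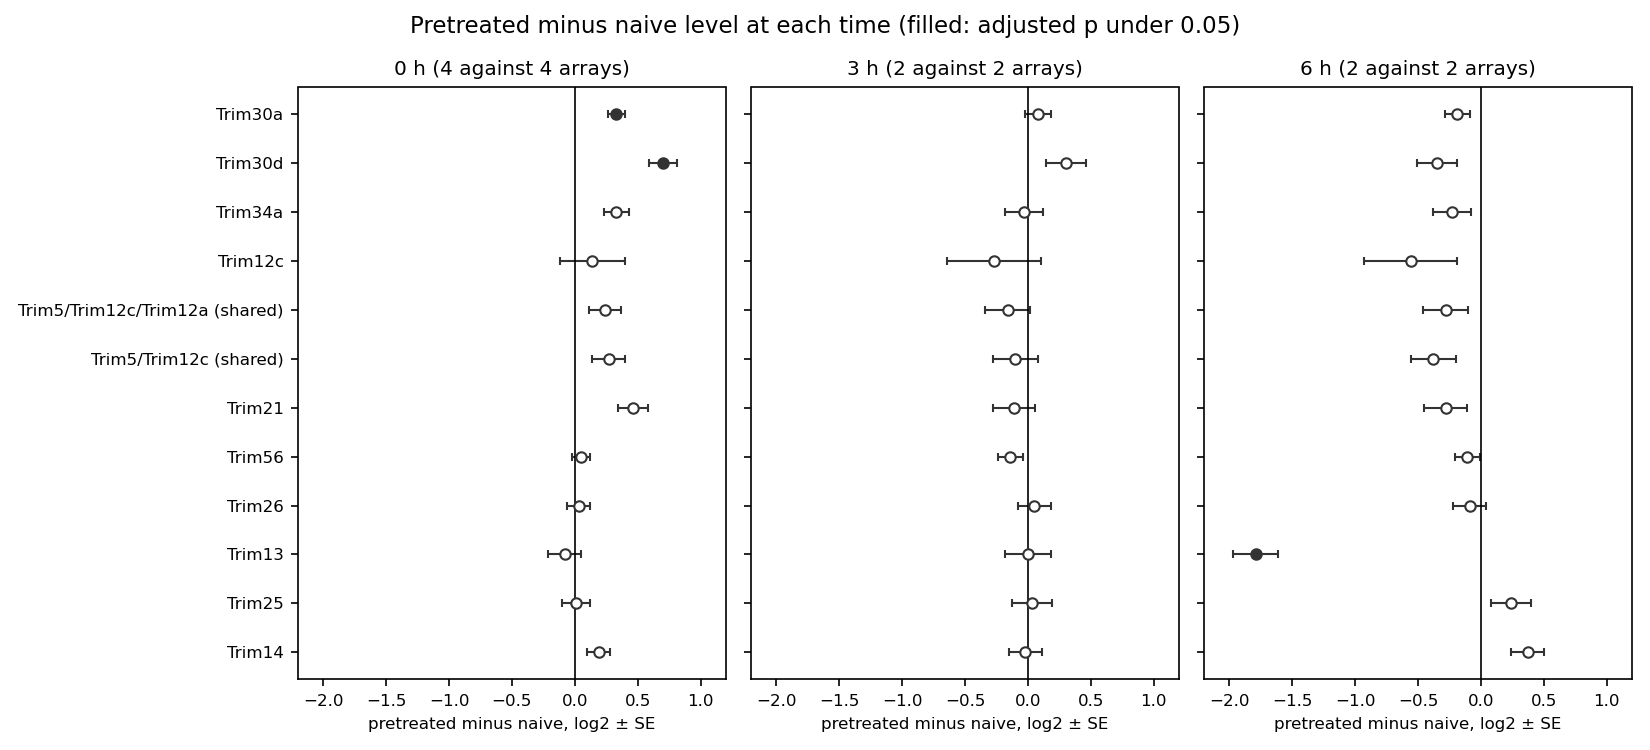
Difference between pretreated and naïve cells in log2 intensity with SE bars for the 12 features at 0 h, 3 h and 6 h, 1 panel each; filled points passed the test (limma adjusted p under 0.05). Trim30d and Trim30a are filled at 0 h (0.7 and 0.33), no feature at 3 h, and Trim13 at 6 h (-1.79).

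Whether the response itself differed with pretreatment was tested as a difference of differences, which uses the same 0 h arrays as the comparisons above. At 3 h 0 of 12 features passed in limma, where 0.15% of all features had a response lower in pretreated cells. At an unadjusted p under 0.05 there were 3 of 12, against 1.76% of all features. These were Trim21 (-0.7 ± 0.24 log2, 95% interval -1.23 to -0.18), Trim30d (-0.61 ± 0.22, interval -1.09 to -0.13) and Trim30a (-0.36 ± 0.14, interval -0.67 to -0.06), with a limma adjusted p of 1 each. The median over the 12 features was -0.38 log2, and that over all features 0.

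At 6 h the response of Trim13 was smaller in pretreated than in naïve cells by 1.64 log2 (-1.64 ± 0.25, limma adjusted p = 0.0221), 1 of 12 features, where 0.145% of all features had a lower response in pretreated cells. Of the 8 arrays, this call was kept only when naïve 6 h replicate 2 or pretreated 0 h replicate 1 was left out, with a limma adjusted p up to 0.146 without naïve 6 h replicate 1, and it was lost in a fit of the 8 arrays of set 1 alone (limma adjusted p = 0.0733). At an unadjusted p under 0.05 there were 6 of 12 features, against 9.29% of all features. Beside Trim13 these were Trim30d (-0.83 ± 0.22 log2, limma adjusted p = 0.2), Trim21 (-0.62 ± 0.24), the feature of Trim5 and Trim12c (-0.63 ± 0.26), Trim34a (-0.53 ± 0.21) and Trim30a (-0.41 ± 0.14). The median was -0.47 log2 over the 12 features and -0.01 over all features.

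Between the 2 times, Trim13 had a larger response at 6 h than at 3 h in naïve cells by 1.46 ± 0.25 log2 (limma adjusted p = 0.0143), 1 of 12 features, where 0.645% of all features did. The call was lost without naïve 0 h replicate 2 (limma adjusted p = 0.0811), naïve 3 h replicate 2 (0.0766) or naïve 6 h replicate 1 (0.0675). The naïve responses of Trim25 (-0.6 ± 0.23 log2) and Trim14 (-0.59 ± 0.19) were lower at 6 h than at 3 h, but these differences did not pass (limma adjusted p = 0.26 and 0.162). In pretreated cells 0 of 12 features differed between the times in limma, as did 0% of all features, and at an unadjusted p under 0.05 it was 1 of 12, Trim34a (-0.53 ± 0.21 log2), against 7.13% of all features.

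The other TRIM genes of the array give the setting for these counts, and 53 had a feature with 1 symbol. Shares over all features apply to this list and those below. In naïve cells 3.44% rose and 1.89% fell at 3 h, and 7.4% rose and 9.91% fell at 6 h. In pretreated cells 1.82% rose and 0.889% fell at 3 h, and 2.86% rose and 2.58% fell at 6 h. At 0 h 0.97% were higher in pretreated than in naïve cells and 0.158% lower. At 3 h in naïve cells 5 of the 53 rose and 2 fell, with a median of -0.01 log2. Pml, the TRIM protein that builds nuclear bodies, rose by 1.45 ± 0.15 log2, Trim12a by 1 ± 0.22 and Trim11 by 0.68 ± 0.13, and Trim8 fell by 0.89 on the log2 scale. At 6 h in naïve cells 6 rose and 8 fell, again with a median of -0.01 log2, the largest changes being in Trim47 (-1.47 ± 0.13), Trim16 (-1.2 ± 0.22), Trim37 (-1.14 ± 0.22) and Trim36 (1.06 ± 0.32). In pretreated cells 2 rose at 3 h (Pml 1.01 ± 0.15 and the pseudogene Trim30e-ps1 0.58 ± 0.13). At 6 h Pml rose by 0.62 ± 0.15 log2, while Trim37 (-0.96 ± 0.22) and Trim47 (-0.7 ± 0.13) fell. None of the 53 differed between pretreated and naïve cells at 0 h, 3 h or 6 h in limma, and 6, 4 and 10 did at an unadjusted p under 0.05, where 7.68%, 3.56% and 12% of all features did.

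Sensors and adaptors that TRIM ligases act on were followed as a list of RIG-I, MDA5 and cGAS-STING signalling genes, 14 of them measured. In naïve cells 8 rose and 1 fell at both 3 h and 6 h, with medians of 0.59 and 0.84 log2 against 0 and -0.02 over all features. At 3 h the nucleic acid sensor Zbp1 rose by 3.4 ± 0.21 log2, the transcription factor Irf7 by 1.82 ± 0.2, the adaptor Sting1, on which Trim56 acts, by 1.42 ± 0.12, and Ifih1, the sensor MDA5, by 1.37 ± 0.15. In pretreated cells 2 rose at 3 h, Sting1 (0.82 ± 0.12) and Ifih1 (0.81 ± 0.15), and 3 at 6 h, Zbp1 (1.23 ± 0.21), Sting1 (0.83 ± 0.12) and Dhx58 (0.6 ± 0.16). At 0 h 5 of 14 were higher in pretreated than in naïve cells, led by Zbp1 (2.5 ± 0.15) and Irf7 (1.54 ± 0.14). Mavs, the mitochondrial adaptor that Trim14 joins, was the 1 that fell in naïve cells, named after its values were seen, by 0.59 on the log2 scale at 3 h and by 1.2 at 6 h. It was higher in pretreated than in naïve cells at 6 h (0.84 ± 0.15 log2, limma adjusted p = 0.0316).

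ISG15, a ubiquitin-like protein, shares enzymes with some of these pathways, and 14 genes of ISG15 and ubiquitin partners were measured. In naïve cells 4 rose at 3 h and 5 at 6 h, and 0 fell, with medians of 0.08 and 0.47 log2. Herc6, the mouse ligase for ISG15, rose by 1.9 ± 0.16 log2 at 3 h, and the conjugating enzyme Ube2l6 by 0.91 ± 0.1 at 3 h and 1.43 ± 0.1 at 6 h. In pretreated cells 2 rose at each time, and at 0 h Herc6 (0.95 ± 0.11) and Ube2l6 (0.69 ± 0.07) were higher in pretreated than in naïve cells. Of 11 further E3 ligases and partners of the endoplasmic reticulum, autophagy or the interferon response, 5 rose at 3 h in naïve cells, and 6 rose and 2 fell at 6 h, with medians of 0.3 and 0.35 log2. Dtx3l, a ligase that works with Parp9, rose by 1.52 ± 0.12 log2 and Rnf31, the catalytic subunit of the linear ubiquitin ligase, by 1.12 ± 0.12 at 3 h, while Calcoco1, an autophagy receptor, fell by 1.18 and Sqstm1, another (chosen after its values were seen), fell by 0.72 at 6 h. In pretreated cells 2 of the 11 rose at 3 h and 4 at 6 h, and 2 were higher than in naïve cells at 0 h.

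Of 13 measured genes of the interferon-gamma receptor, STAT and IRF group, 6 rose and 2 fell at 3 h in naïve cells, and 6 rose and 0 fell at 6 h, with medians of 0.31 and 0.5 log2. The 2 that fell, named after their values were seen, encode the receptor chains: Ifngr1 fell by 0.93 and Ifngr2 fell by 0.58 on the log2 scale. Socs1, the feedback inhibitor of JAK kinases, rose by 4.25 ± 0.15 log2 at 3 h and the transcription factor Irf1 by 2.93 ± 0.15. In pretreated cells 3 rose and 1 fell at 3 h, and 4 rose and 1 fell at 6 h, with Socs1 up by 3.3 ± 0.15 and 3.19 ± 0.15 log2. At 0 h 3 were higher in pretreated cells: Irf1 (1.11 ± 0.1), Stat2 (0.9 ± 0.08) and Socs1 (0.54 ± 0.1). Irf1 was the 1 gene of the group whose 3 h response was smaller in pretreated cells (-1.65 ± 0.21 log2, limma adjusted p = 0.00592).

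The 10 single-symbol features were also compared with each other over the 16 arrays, with the mean of its own array set taken from every array. The 45 pairwise Pearson correlations ran from -0.59 (Trim13 and Trim14) to 0.99 (Trim30a and Trim30d), with a median of 0.62. They describe arrays that share groups and sets. Trim30a and Trim30d are near copies, so shared probe signal can enter their value. Outside the 12 features, the genes closest to Trim30d were Ifih1 (r = 0.989), Ifit1 (0.981) and Cmpk2 (0.976), and those closest to Trim30a were Enpp4 (0.983), Ifih1 (0.981) and Ifit1 (0.98). Eif2ak2, the kinase PKR, was closest to Trim21 (0.979), Stat3 to Trim56 (0.985), Ddx60 to Trim34a (0.959), Kat2b to Trim12c (0.975) and Lhx2 to Trim26 (0.97). Trim13 was closest to Clec4e (0.905), a macrophage receptor for mycobacterial glycolipid, and to the kinase gene Fgr (0.905). Trim14 and Trim25 had lower best values, 0.88 with Olfr122 and 0.836 with F420014N23Rik. Each closest gene was picked from the features with 1 symbol outside the 12, and the array has 21789 features with 1 symbol. The highest r of so many over 16 arrays is high by selection, so these names are description only.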

How the data were processed

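Macrophage RNA was run on 16 Affymetrix mouse gene arrays of 1 colour, 2 per group and array set, so that the 0 h groups, which are in both sets, hold 4 each. The authors deposited log2 intensities, labelled with biotin per the labels' protocols; how they were background-corrected and normalized is not stated in the labels. The number of arrays limits the precision. Values were used as deposited, with no filter on low values: the lowest value of the 12 features was 8.14. Symbols came from the platform annotation and matched RefSeq genes of GRCm38.p6.

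In limma 3.58.1 (R 4.3.3), 8 means were fitted, 1 per group and array set, leaving 8 residual and 4.14 prior degrees of freedom. Changes were taken within a set, and averaged over both at 0 h. Benjamini-Hochberg adjustment of the moderated p-values ran over 23410 features with a symbol, and a feature was called at an adjusted p under 0.05. The fit was run on simulated data with noise drawn independently for each array. That run therefore did not cover the correlated deviations of half-sets given below. No 2 arrays held identical values, and replicates correlated at 0.9901 to 0.9954.

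Named genes were the members, up to 4 genes a list with the largest change past the threshold, and up to 3 genes most correlated with a member. The members and lists were chosen with earlier results of these data known. Alternatives changed the set term, the features tested, the normalization, the variance model and the arrays kept. Half-sets, read from the order of positions in the titles, were checked as pairs: their deviations correlated at 0.17 to 0.675 in set 1 and 0.067 to 0.632 in set 2. Promoter strings were searched with Python 3.11.15, windows aligned with Biopython 1.88, and figures drawn with matplotlib 3.10.9.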

Additional observations from a re-analysis of the deposited data

Results flagged for a closer look

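2 results of Trim13 differed between groups in a test of the difference itself. The 6 h response of Trim13 was smaller in pretreated than in naïve cells (-1.64 log2, limma adjusted p = 0.0221), and both pretreated 6 h arrays lay below their 0 h arrays while both naïve 6 h arrays lay above theirs. The naïve response of Trim13 was larger at 6 h than at 3 h (1.46 log2, limma adjusted p = 0.0143), a difference in which time and array set cannot be told apart. Both rest on the 2 naïve 6 h arrays, at 10.65 and 10.36. Their cause was not tested.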

How the results depend on the processing

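Of the 28 calls over 11 comparisons, 14 were kept with any 1 array of their comparison left out. The 3692 single-feature recomputations cover 132 results, of which 28 were calls. In 68 recomputations the log2 change turned its sign, all past the threshold in neither fit. No called change turned its sign. With 1 array left out, the number of changed features ranged from 5 to 9 (naïve 3 h), 6 to 10 (naïve 6 h), 1 to 4 (pretreated 3 h), 0 to 2 (pretreated 6 h), 1 to 2 (pretreated against naïve at 0 h), 0 to 1 (difference of responses at 6 h) and 0 to 1 (naïve response, 6 h minus 3 h), against 7, 10, 4, 2, 2, 1 and 1. With no array-set term the first 5 gave 4, 9, 2, 1 and 1. With only the arrays of the set, pretreated 3 h gave 1, pretreated 6 h gave 1 and the difference of responses at 6 h gave 0. A change of at least 2-fold gave 2, 4, 1, 0 and 0 in the first 5. Array weights gave 1 for pretreated 3 h, 1 for pretreated 6 h and 1 at 0 h, and a variance trend with robust fitting gave 1 for pretreated 6 h. An additive set term gave 2 for the difference of responses at 6 h and 2 for the naïve 6 h minus 3 h response. At 0 h, set 1 alone gave 0, set 2 alone 0, and all features, 1 feature a gene and the mean of a gene's features gave 1 each. Some of these fits used fewer arrays, and the cause of the shifts was not tested. Counts over all features moved as well: from 1247 at naïve 3 h they ranged from 571 to 2158, from 4052 at naïve 6 h from 1505 to 5422, from 633 at pretreated 3 h from 251 to 1457, from 1274 at pretreated 6 h from 522 to 2199, and from 264 at 0 h from 72 to 801. Pretreated against naïve cells ranged from 1 to 65 at 3 h (3) and from 9 to 879 at 6 h (155), the difference of responses from 6 to 50 at 3 h (35) and from 10 to 366 at 6 h (41), and the 6 h minus 3 h response from 78 to 1416 in naïve (386) and 0 to 214 in pretreated cells (0).

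Titles carry no replicate numbers. Half-set pairs correlated above 0.1 in 6 of 6 pairs of set 1 and in 5 of 6 pairs of set 2. With the half-set as a replicate block the first 5 comparisons gave 10, 10, 6, 2 and 3 changed features, 6 calls more and none lost: Trim26, Trim14 and Trim12c at naïve 3 h, Trim26 and Trim34a at pretreated 3 h, and Trim21 at 0 h (limma adjusted p = 0.00292, against 0.13). Over all features the block gave 2158, 5422, 1457, 2199 and 801 calls, against 1247, 4052, 633, 1274 and 264 without it. The lowest log2 intensity of the 12 features was 8.14, and the number of arrays limits these results.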
